A study of Mus musculus with 6 samples.

Results

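The neuropeptide galanin (Gal, ENSMUSG00000024907) and its receptors Galr1 (ENSMUSG00000024553) and Galr2 (ENSMUSG00000020793) were followed through single-cell RNA counts of the adult mouse hypothalamic preoptic region. The 3 genes were taken by their symbols from the 27998 genes of the deposited table. They were read in the 30824 cell barcodes that held at least 500 detected genes and at most 20% mitochondrial molecules, out of 31299 barcodes. In the GRCm38 assembly (mm10, GENCODE M21 annotation) Gal lies at chr19:3409915-3414544 on the minus strand, Galr1 at chr18:82392380-82406777 on the minus strand and Galr2 at chr11:116280939-116283938 on the plus strand. Galr3, which encodes the remaining galanin receptor, was not analysed here.

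The study profiled dissociated preoptic cells of both sexes with droplet-based 10x Genomics libraries, in which each captured transcript is counted by a unique molecular identifier (UMI). There were 3 female and 3 male libraries. Every library pooled tissue from 3 mice, which were 60 to 70 days old and had lived singly for 3 days before collection. The labels name no transgene or drug for either sex. The tissue was digested with protease and live cells were sorted, so cells that survive digestion poorly may be missing. The p-values below take these pools, not single animals, as replicates. Fitted standard errors and p-values can be smaller than the spread of a gene's own library values would give.

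Galanin is stored in dense-core granules and released beside a fast transmitter. Galr1 is a receptor coupled to inhibitory G proteins, which lower cyclic AMP and open inwardly rectifying potassium channels, whereas Galr2 signals mainly through phospholipase C. In the preoptic region, neurons that make galanin are known for roles in parental behaviour and in sleep and body temperature.

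Depth and yield differed widely between pools. After 1002 predicted doublets (3.25%) had been left out, 29822 cells remained, between 406 and 9365 per library, with median depths of 2332 to 6689 UMIs per cell. Female 3 was both the smallest (406 cells) and the shallowest library, and held 97 inhibitory and 4 excitatory neurons. In all, 479 barcode sequences occurred in more than 1 library, which touched 3.08% of barcodes. Across all cells, 7 of 16088 genes tested (0.0435%) differed between the sexes, among them Xist on the female side and Ddx3y, Kdm5d and Eif2s3y on the male side, in the direction of the labels in every library.

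Gal transcripts were found in many cells, but most of them sat in few. In the 30824 cells there were 41091 Gal UMIs in 5852 cells (18.99%), of which 3736 cells held a single Gal UMI and the richest held 333. The 738 cells with 10 or more Gal UMIs, 2.39% of all cells, held 79.4% of the Gal UMIs. Cells at or above this count are called Gal-high here.

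The share of cells with a Gal UMI was 18.98% in female 1, 29.9% in female 2, 2.93% in female 3, 17.4% in male 1, 9.08% in male 2 and 8.15% in male 3. The summed Gal level, in Gal UMIs per 1000000 UMIs of the cells concerned (CPM), was 196, 256 and 30.5 CPM in the 3 females and 176, 103 and 131 CPM in the 3 males. Female 2 was highest and female 3 lowest by either measure, and the ranges of the sexes overlapped. In such sums, fewer cells that make a transcript and less of it per cell cannot be told apart.

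With predicted doublets left out, 712 Gal-high cells remained (133, 313 and 1 in the females; 155, 81 and 29 in the males). They held a median of 25 Gal UMIs (quartiles 15 and 49), and the library medians lay between 11 and 28. In the most extreme cell, Gal made up 2.54% of all UMIs. Gal-high cells were also deeper than cells with no Gal UMI (median 11182 against 5145 UMIs), but relative to their own depth they still carried a median of 25.7 Gal UMIs per 10000 UMIs.

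Cells with few Gal UMIs were of many kinds, and cells with many were nearly all inhibitory neurons. Of the 3586 cells with a single Gal UMI, 50.1% were inhibitory-like neurons, compared with 40.2% of the 24225 cells without one. The inhibitory share was 76.9% at 3 to 9 UMIs, 91.9% at 20 to 49 UMIs and 96.1% among the 76 cells with 100 or more, which alone held 32.8% of the Gal UMIs. Those 76 cells came from 5 libraries (8, 42, 14, 11 and 1), with none in female 3.

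**Figure D1:**
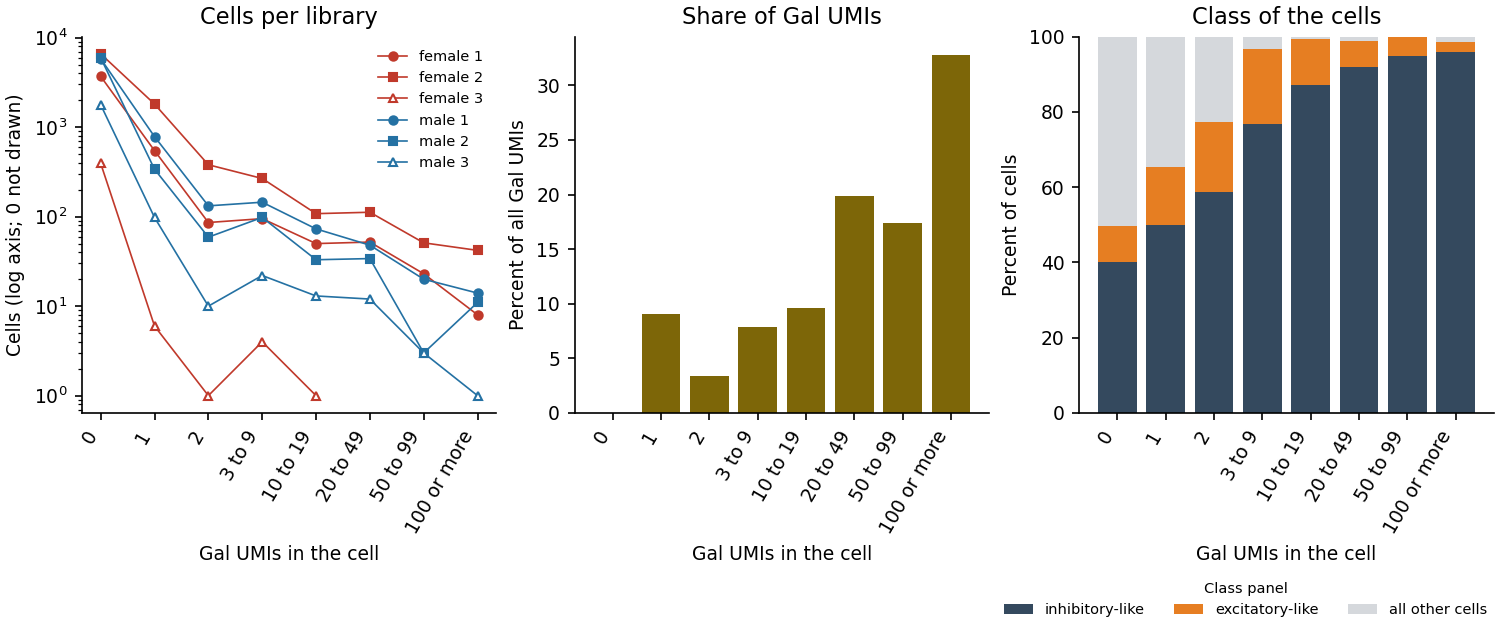
Cells are grouped by their number of Gal UMIs: the left panel gives cells per library on a log axis (bins with no cell are not drawn), the middle panel the percent of all Gal UMIs, and the right panel the percent of cells that were inhibitory-like neurons, excitatory-like neurons or other cells. Cells with 100 or more Gal UMIs were few in every library but held 32.8% of all Gal UMIs, and 96.1% of them were inhibitory-like.

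Cells were classed by clustering without Gal, its receptors or other peptide and peptide receptor genes, and named "like" a type by marker genes. Gal was highest in inhibitory-like neurons, which express the GABA-synthesis genes Gad1 and Gad2 and the vesicular transporter Slc32a1. In the 13061 inhibitory-like cells it stood at 338 CPM and took 87.0% of all Gal UMIs. The unnamed cluster 5, which is not subcluster 5 below, held 2110 more neurons with GABA genes. Gad1 had a UMI in 81.4%, Gad2 in 94.9% and Slc32a1 in 74.1% of them, and the rule on leading genes left them unnamed. They held 21.8 CPM of Gal and are not counted in the inhibitory-like class in the levels and main tests. The library values were 333, 413 and 97.7 CPM in the females and 315, 226 and 256 CPM in the males. In the 3138 excitatory-like cells, which express the glutamate transporter Slc17a6, it stood at 112 CPM (57.4, 126 and 0 CPM in the females; 168, 54.6 and 118 CPM in the males).

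In CPM each library thus held more Gal in inhibitory than in excitatory neurons. The difference was 1.67 ± 0.08 on the log2 scale (SE; edgeR quasi-likelihood test with library as block, Benjamini-Hochberg adjusted p = 1.5e-26; 273 ± 108 against 87.3 ± 60.9 CPM, SD, n = 6). Female 3 entered with only 4 excitatory cells. Without it the difference was 1.68 ± 0.12 log2 (edgeR adjusted p = 5.8e-12). Library by library, the log2 ratio (1 CPM added) was 2.52, 1.70 and 6.62 in females and 0.90, 2.03 and 1.11 in males. These ratios spread more widely than the fitted SE. In this comparison 27.5% of 12363 genes passed the threshold of 0.05 on the adjusted p used throughout. The share of cells with any Gal UMI told the classes apart less well: 25.4% of inhibitory and 27.2% of excitatory cells had one, at median depths of 7002 and 8091.5 UMIs. With every cell thinned to 2000 UMIs the shares were 13.4% and 10.5%.

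A low level of Gal was seen in cells that are not known as a source of it. Mature oligodendrocyte-like cells, which make myelin, held 18.8 CPM of Gal, and 9.64% of them had a Gal UMI (4.01% when thinned) at a median depth of 4827.5 UMIs, with at most 5 UMIs in a cell. Their level was between 5.31% and 14.5% of the all-cell level in 5 libraries and 0 in female 3. A share of cells with a UMI near this one is not read as expression, which is why the tests below set cells with 10 or more Gal UMIs against cells with none.

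Outside neurons only 6 Gal-high cells were found: 3 astrocyte-like cells with at most 28 UMIs, 2 endothelial-like cells with at most 39 and 1 mural-like cell with 244. That last cell lifted the level of mural-like cells to 176 CPM. With the 10% of cells of highest doublet score left out, mural-like cells held 29.5 CPM. In exact two-sided sign-flip tests over the 6 libraries, whose smallest possible p is 0.03125, Gal was lower than in inhibitory neurons in 6 of 6 libraries for 8 of the 9 other classes tested (p = 0.03125, adjusted over 27 tests p = 0.105) and in 5 of 6 for mural-like cells. The unnamed cluster 5, with its GABA genes, was among those 8.

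**Figure D2:**
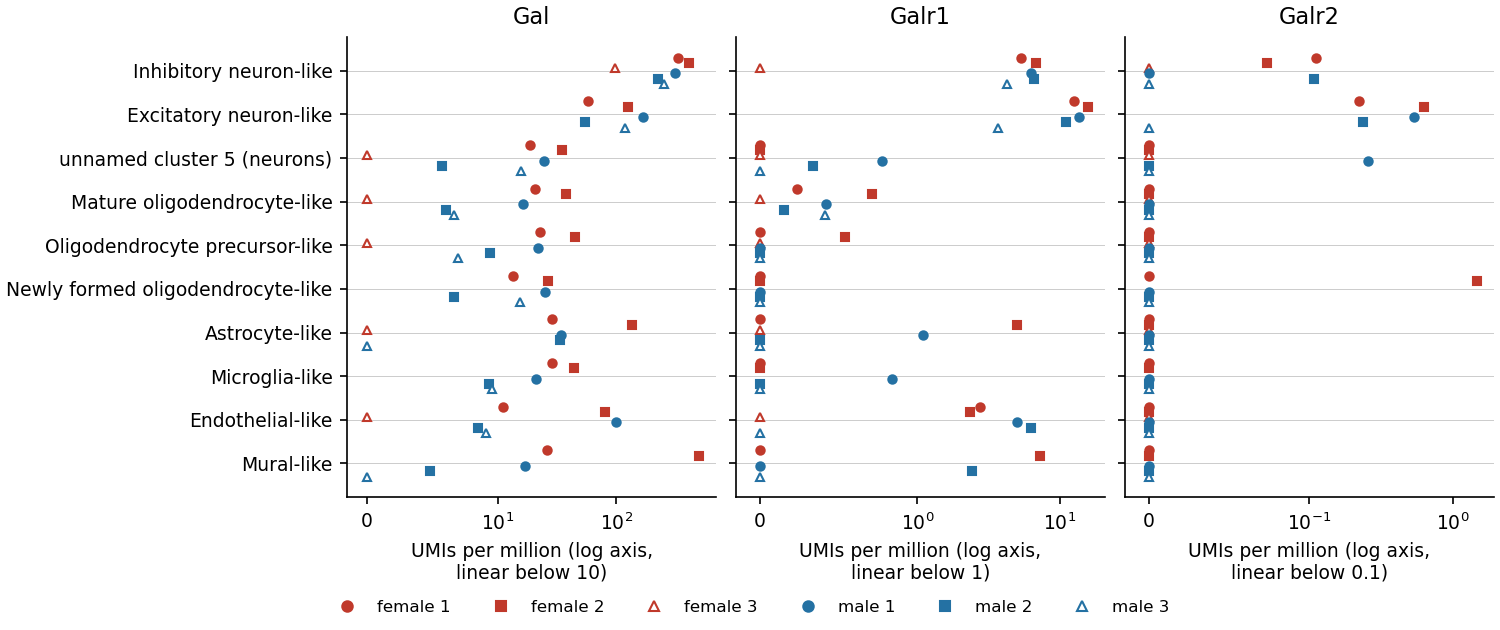
Level of Gal, Galr1 and Galr2 (CPM, log axes that turn linear near 0) in each library by cell class; red marks are female and blue marks male libraries, with circle, square and open triangle for pools 1, 2 and 3, and only classes with at least 20 cells in a library are drawn. Gal was highest in inhibitory-like neurons in the summed cells (338 CPM), and Galr1 in excitatory-like neurons (13.9 CPM against 6.30 CPM in inhibitory-like neurons).

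Reclustering the 18309 cells of neuronal clusters gave 32 subclusters, which are numbered by size and were left unnamed. Gal was concentrated in subclusters 5 and 25. Subcluster 5, led by the homeobox genes Hmx2 and Hmx3, the neurotensin gene Nts and Apoc3 beside Gal itself, had 815 cells, of which 348 (42.7%) were Gal-high. Subcluster 25, led by Rrad, Fosb and Gem beside Gal, had 265 cells, of which 119 (44.9%) were Gal-high. Subcluster 5 held 49.3% of Gal-high neurons and 54.0% of neuronal Gal UMIs, and subcluster 25 held 16.9% and 13.6%.

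In subcluster 5 the Gal level was 2160 and 2256 CPM in females 1 and 2 and 2539, 2550 and 1641 CPM in males 1 to 3, a mean of 2229 ± 371 CPM (SD, n = 5). In subcluster 25 it was 1350 and 1812 CPM in those females and 1379, 1006 and 1809 CPM in the males, a mean of 1471 ± 343 CPM. The sexes overlapped in both. Female 3 gave 3 and 1 cells and is left out of these means. The genes leading subcluster 25 are early-response genes, which also rise when tissue is dissociated; Fos had a UMI in all of its Gal-high cells, against 48.9% of those in subcluster 5. The part of dissociation in this split was not tested.

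The remaining Gal-high neurons were spread thinly. Subcluster 0 held 64 (3.80% of its cells, 359 CPM), subcluster 17, led by St18 and Moxd1, held 25 (5.10%, 251 CPM), subcluster 14 held 21, the mostly excitatory subcluster 15 held 20 and the Trh- and Otp-led excitatory subcluster 10 held 17. The level in subcluster 17 ranged from 67.2 to 455 CPM over 5 libraries, so its order against subcluster 0 (147.6 to 468 CPM) does not hold beyond that spread.

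Across the 32 subclusters, the genes whose level ran most closely with that of Gal were Hmx2 (Pearson r = 0.80 on log2(CPM + 1)), Hmx3 (0.77), Cited1 (0.73), Pnoc (0.73) and Slc18a2 (0.72), out of 6233 genes that reached 50 CPM in a subcluster. These points share the same libraries and differ in depth, so the values are a description. Hmx2 and Hmx3 encode homeobox transcription factors, Pnoc encodes the precursor of nociceptin, and Slc18a2 encodes the vesicular monoamine transporter.

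Most Gal-high neurons had UMIs of the GABA transporter gene. Of the 706 Gal-high neurons, 522 (73.9%) had a UMI of Slc32a1 and none of Slc17a6, 50 (7.08%) had Slc17a6 alone, 62 (8.78%) had both and 72 (10.2%) had neither. In the 5 libraries with more than 1 Gal-high cell, Slc32a1 alone was seen in 76.7%, 75.6%, 64.9%, 79.0% and 79.3%. Among the 13870 neurons without a Gal UMI the shares were 62.5% for Slc32a1 alone, 15.5% for Slc17a6 alone, 4.34% for both and 17.7% for neither. These shares follow depth: thinned to 2000 UMIs, 39.9% of Gal-high neurons had Slc32a1 alone, 6.10% had Slc17a6 alone, 0.709% had both and 53.3% had neither. As background, mature oligodendrocyte-like cells had Slc32a1 alone in 6.60%, Slc17a6 alone in 1.76% and both in 0.256% of 6638 cells, and in 2.48%, 0.811% and 0.0459% after thinning. They are shallower (median 4827.5 against 11167 UMIs), so a single UMI is not read as expression of either transporter.

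By cluster, 647 Gal-high cells were inhibitory-like (129, 285 and 1 in the females; 130, 75 and 27 in the males) and 59 were excitatory-like (4, 23 and 0; 24, 6 and 2). The excitatory ones held fewer Gal UMIs, a median of 17 against 26, with at most 220 and 333. Leaving out the Gal-high cells lowered Gal from 338 to 53.3 CPM in inhibitory and from 112 to 50.7 CPM in excitatory neurons. Of the 59 excitatory Gal-high cells, 61.0% had a UMI of Adcyap1, which encodes the peptide PACAP, and 42.4% one of the neurotrophin gene Bdnf. Both are leading genes of the larger excitatory-like cluster (2971 cells) as a whole. Excitatory Gal-high cells were also deeper than excitatory cells without a Gal UMI (median 11268 against 7312.5 UMIs). These shares are therefore not read as particular to excitatory Gal-high cells. Only female 2 and male 1 had 10 or more excitatory Gal-high cells, so these were not set against other excitatory cells by a test.

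To ask which genes go with galanin, the summed UMIs of Gal-high inhibitory neurons were compared with those of inhibitory neurons without a Gal UMI in the same library. The comparison took 646 against 9655 cells in 5 libraries (27 to 285 against 615 to 2891 per library). Gal-high cells had higher levels of Th and other monoamine genes, of the calcitonin receptor Calcr, of Hmx2 and Hmx3, of Nts, Pnoc, Cck and Cartpt, and of Galr1. They had lower levels of the clock-neuron peptides Avp, Vip and Nms, of Sst, Penk and Npy, and of many fate genes of other GABA neurons. Of 11634 genes tested, 3712 (31.9%) passed, 1855 higher and 1857 lower in Gal-high cells, so the counts of list members below are read against that share.

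Markers of other cell types were summed in the same cells, with female 3 in the Gal-zero set alone. The 8 mature oligodendrocyte markers reached 745 to 1688 CPM in Gal-high and 801 to 1982 CPM in Gal-zero cells, and the 8 microglial markers a mean of 64.5 and 65.2 CPM. The 8 astrocyte markers were at 249 to 336 against 174 to 269.8 CPM, chiefly through Aldoc, and the 6 endothelial markers at 16.2 to 34.2 against 32.7 to 53.8 CPM, chiefly through Itm2a. The 3 tanycyte markers lay lower without overlap (7.47 to 11.98 against 47.8 to 76.98 CPM). Crym made up most of that sum (8.71 against 63.3 CPM), while the defining tanycyte gene Rax was at 0 in Gal-high cells and at 0.023 CPM in Gal-zero cells. The 4 blood markers were at 3.74 to 17.1 against 3.97 to 241 CPM. The part of these cell types in the results was not tested.

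The widest differences upward were in Hmx3 (4.13 ± 0.22 log2, SE; 44.9 ± 9.62 against 2.54 ± 1.49 CPM, SD, n = 5) and Hmx2 (3.76 ± 0.15; 73.7 ± 13.9 against 5.17 ± 1.45 CPM). Next came Apoc3, which encodes an apolipoprotein, at 43.7 against 3.45 CPM, then Th, Ctxn3 (25.7 against 2.91 CPM), Calcr, Cpne9 (27.9 against 3.99 CPM), Fam46a (74.0 against 14.4 CPM), Gpc4 (39.5 against 8.27 CPM) and the bombesin-like receptor Brs3 (27.4 against 4.91 CPM). The widest differences downward were in Avp, the cell-matrix gene Cyr61 (2.87 ± 3.28 against 24.99 ± 12.2 CPM), the striatal transcription factor Bcl11b (5.74 against 81.6 CPM), Fign (1.90 against 21.0 CPM) and the haemoglobin gene Hbb-bs (4.62 ± 3.38 against 31.3 ± 54.6 CPM). Each of these had the same direction in 5 of 5 libraries. Hbb-bs rested on female 2: without it the difference was -0.49 log2 (edgeR adjusted p = 0.32).

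Summed over cells, Gal-high inhibitory neurons held more Th and more of several other monoamine genes. Within subcluster 5 alone, treated below, only Th passed. Th encodes tyrosine hydroxylase, the rate-limiting enzyme of catecholamine synthesis. Its level in Gal-high cells was 96.9 and 127 CPM in females 1 and 2 and 143, 135 and 39.9 CPM in males 1 to 3, against 9.51, 12.6, 8.14, 10.2 and 27.4 CPM in Gal-zero cells of the same libraries. All 5 Gal-high values lay above all Gal-zero values, though in male 3 by little. The difference was 3.44 ± 0.17 log2 (adjusted p = 4.4e-15, edgeR).

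Of 9 monoamine genes tested from a list of 12, 7 were higher and 0 lower (median 0.62 log2, against -0.01 for all genes). Slc18a2 stood at 36.5 ± 13.1 against 10.1 ± 2.27 CPM (1.99 ± 0.13 log2), the cofactor-synthesis gene Gch1 at 6.60 against 3.08 CPM and the monoamine oxidase gene Maob at 8.92 against 4.13 CPM. Ddc, which encodes aromatic amino acid decarboxylase, differed less (58.0 ± 14.9 against 42.2 ± 5.63 CPM; 0.62 ± 0.10 log2). Th had a UMI in 32.9% of Gal-high and 3.35% of Gal-zero inhibitory cells (15.2% and 1.39% thinned to 2000 UMIs), and in 0.542% of oligodendrocyte-like cells (0.245% thinned). Ddc, in contrast, had a UMI in 34.9% of Gal-high, 17.4% of Gal-zero and 25.5% of oligodendrocyte-like cells, and 9.44%, 6.44% and 10.1% after thinning. Thinned oligodendrocyte-like cells thus had a larger share than either set of neurons. Whether they express Ddc was not tested, so they are not read as its background. From these shares alone no expression of Ddc is read. The dopamine transporter Slc6a3 had a UMI in 0.309% of Gal-high and 0.452% of Gal-zero cells.

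Over all inhibitory-like cells, GABA-synthesis genes were at similar or slightly lower levels in Gal-high cells. Gad1 stood at 577 ± 47.0 against 630 ± 27.9 CPM (-0.10 ± 0.04 log2, edgeR adjusted p = 0.069), Gad2 at 690 ± 113 against 869 ± 99.6 CPM (-0.28 ± 0.04) and Slc32a1 at 301 ± 38.7 against 393 ± 43.8 CPM (-0.35 ± 0.05). The choline transporter Slc5a7 was lower (1.19 against 9.08 CPM). Of 8 transmitter genes tested from a list of 15, 4 were lower and 0 higher (median -0.32 log2). Neither Slc17a6 (12.2 against 18.4 CPM, edgeR adjusted p = 0.052) nor Slc17a8 (6.47 against 7.46 CPM, adjusted p = 0.72) passed.

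Co-peptides split in both directions: of 29 tested from a list of 48, 8 were higher, 10 lower and 11 did not pass (median -0.35 log2). Higher were Adcyap1 (15.3 ± 7.32 against 2.42 ± 0.35 CPM; 2.86 ± 0.22 log2), Nmb (10.8 against 3.13 CPM), the prokineticin gene Prok2 (78.5 against 32.8 CPM), Cck (191 against 79.8 CPM), Pnoc (259 ± 65.5 against 84.9 ± 8.28 CPM; 1.51 ± 0.08 log2) and Nts (605 ± 96.7 against 219 ± 13.9 CPM; 1.49 ± 0.06 log2). The list's remaining higher members were Cartpt (313 against 181 CPM) and Tac2 (99.4 against 63.7 CPM). Lower were Nms (0.255 against 16.2 CPM), Avp (67.0 ± 45.5 against 1045 ± 491 CPM), Vip (18.7 against 181 CPM), Crh (4.69 against 37.8 CPM), Sst (93.0 against 578 CPM), Tac1 (60.8 against 259 CPM), Penk (204 against 567 CPM), Npy (141 against 250 CPM), Calca and Bdnf. Avp, Vip and Nms are peptides of suprachiasmatic clock neurons, and subcluster 2, led by Avp and Nms, was among the inhibitory cells compared.

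Single cells showed how often these peptides were abundant together with Gal. Of the 706 Gal-high neurons, 125 (17.7%) also held 10 or more UMIs of Nts, 80 (11.3%) of Cartpt, 63 (8.92%) of the granule protein gene Vgf, 50 (7.08%) of Penk, 40 (5.67%) of Pnoc and 31 (4.39%) of Npy. At least 1 other peptide reached 10 UMIs in 320 of them (45.3%), compared with 35.3% of neurons without a Gal UMI, and exactly 2 others did in 13.5% compared with 6.38%. Gal-high cells are the deeper ones, and these shares were not thinned. Penk, although lower in level, had a UMI in 44.5% of Gal-high and 43.5% of Gal-zero inhibitory cells, and in 18.3% and 26.2% after thinning.

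Receptors for hormones and other peptides also differed. Calcr encodes the calcitonin receptor, known from preoptic neurons active in parental care. It stood at 88.3, 77.3, 50.5, 64.8 and 87.8 CPM in Gal-high cells of the 5 libraries and at 9.59, 11.8, 8.07, 8.19 and 6.42 CPM in Gal-zero cells, so the groups did not overlap (2.95 ± 0.12 log2, adjusted p = 5e-17, edgeR). It had a UMI in 34.9% of Gal-high and 4.29% of Gal-zero inhibitory cells, and in 13% and 1.71% after thinning.

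Of 30 peptide receptors tested from a list of 42, 8 were higher and 7 lower (median 0.03 log2). Besides Calcr, Brs3 was higher, as were the opioid receptor Oprk1 (85.7 ± 19.4 against 26.0 ± 1.88 CPM) and the melanocortin receptor Mc4r (5.85 against 2.21 CPM). The VIP receptor Vipr2 (0.466 against 9.02 CPM), the tachykinin receptor Tacr1 (1.18 against 7.35 CPM) and the RAMP genes Ramp1 and Ramp3, whose products partner calcitonin family receptors, were lower.

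Among 10 steroid and hormone receptors tested from a list of 14, 3 were higher and 3 lower (median -0.04 log2). The prolactin receptor gene Prlr stood at 180 ± 31.1 against 71.4 ± 16.0 CPM (1.30 ± 0.07 log2) and the estrogen receptor gene Esr1 at 24.9 ± 7.59 against 10.1 ± 3.22 CPM (1.30 ± 0.15 log2), higher in 5 of 5 libraries each. The thyroid hormone receptors Thrb and Thra and the insulin receptor Insr were lower (-0.73, -0.28 and -0.45 log2), whereas Pgr and Nr3c1 did not pass. Insr no longer passed without female 1 or without male 1.

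Of 16 genes of peptide processing and granules, 7 were higher and 3 lower (median 0.10 log2). The granins Chgb (587 ± 106 against 333 ± 30.4 CPM) and Scg2 (2416 against 1624 CPM) and the granule protein gene Resp18 (2434 against 1429 CPM) were higher, while Chga (198 against 310 CPM) and the convertase Pcsk1 (8.41 against 13.6 CPM, not past the threshold without female 1) were lower. Of 25 genes of galanin receptor signalling tested from a list of 31, 2 were higher and 9 lower (median -0.10 log2): Rgs4, a regulator of G-protein signalling, stood at 289 against 140 CPM, and the adenylyl cyclases Adcy1 (3.86 against 14.5 CPM), Adcy8 and Adcy5 were among the lower ones. Among 25 fate factors tested from a list of 32, 8 were higher, with Dlx1 (194 ± 9.36 against 70.7 CPM) and Isl1 (176 against 78.9 CPM) beside Hmx2 and Hmx3, and 15 were lower, among them Lhx8, Lhx6, Sp9, Meis2 and Foxp2. Of 25 early-response genes, 4 were higher and 9 lower (median -0.21 log2), and Fos did not pass (600 against 655 CPM).

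A list of 15 genes reported as markers of preoptic galanin neurons was drawn from the field and may rest in part on these libraries, so its direction is not independent evidence. Of 14 tested, 10 were higher and 2 lower (median 1.47 log2). Amigo2 (119 against 25.1 CPM), Ecel1 (163 against 51.8 CPM) and Irs4 (126 against 41.0 CPM) were among the higher ones, and Moxd1 (5.05 against 9.12 CPM, edgeR adjusted p = 0.046) and Ramp3 the lower ones.

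Because subclusters 5 and 25 held most Gal-high cells, the comparison was repeated within subcluster 5 and outside both, alternatives that were chosen after seeing the data. Within subcluster 5, 347 Gal-high cells were set against 198 cells without a Gal UMI in 5 libraries, and 123 of 6112 genes passed (2.01%). These Gal-zero cells were as rich in Hmx2 (93.3 ± 22.3 against 93.1 ± 20.5 CPM), Hmx3 (47.8 against 46.1 CPM) and Pnoc (289 against 275 CPM) as Gal-high cells, and none of the 3 passed the test. Hmx2 took part in the clustering that grouped these cells, so its even level there is partly given; Hmx3 did not.

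What still differed within subcluster 5 was chiefly Th. Its level was 113, 159, 184, 174 and 59.0 CPM in Gal-high cells of the 5 libraries and 16.6, 10.5, 5.06, 6.04 and 0 CPM in Gal-zero cells, from 607 and 19 UMIs (4.01 ± 0.23 log2, adjusted p = 2.6e-14, edgeR). The groups did not overlap. Cartpt stood at 330 ± 167 against 80.2 ± 44.3 CPM (2.06 ± 0.17 log2), Prok2 at 68.3 against 12.6 CPM, Calcr at 77.9 ± 23.8 against 22.2 ± 6.41 CPM (1.77 ± 0.22 log2) and Oprk1 at 110 against 34.4 CPM, each higher in 5 of 5 libraries. Cck was higher by the test (2.46 ± 0.37 log2) but in 4 of 5 libraries. Of 4 transmitter genes tested there, 1 was higher and 0 lower. It was Gad1 (0.31 log2), which did not pass over all inhibitory-like cells and there had the opposite sign.

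Esr1 went the other way there. It stood at 18.7 ± 9.36 CPM in Gal-high and 45.4 ± 30.9 CPM in Gal-zero cells of subcluster 5 (-1.30 ± 0.22 log2, edgeR adjusted p = 0.00016, higher in Gal-high cells in 1 of 5 libraries), whereas outside subclusters 5 and 25 it was higher in Gal-high cells (40.7 ± 9.91 against 9.45 ± 2.17 CPM; 2.06 ± 0.25 log2, 4 of 4 libraries). Whether these differences differ from each other was not tested. The calcium-binding protein gene Calb2 (125 against 368 CPM) and the fate gene Six3 (10.2 against 41.6 CPM) were also lower in the Gal-high cells of subcluster 5. Slc18a2 (31.8 against 52.4 CPM, edgeR adjusted p = 0.10) and Nts (817 against 1035 CPM, adjusted p = 0.064) did not pass.

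Outside subclusters 5 and 25, 176 Gal-high cells were set against 8801 Gal-zero cells in 4 libraries, and 601 of 12712 genes passed (4.73%). Hmx3 (22.1 ± 3.94 against 0.970 ± 0.733 CPM), Hmx2 (27.0 against 2.45 CPM), Th (70.9 ± 17.2 against 10.0 ± 1.93 CPM; 2.72 ± 0.21 log2) and Calcr (38.3 ± 6.23 against 8.74 ± 1.62 CPM; 2.10 ± 0.25 log2) were again higher, in 4 of 4 libraries each. Of 9 monoamine genes 4 were higher (Th, Slc18a2, Ddc and Maoa) and 0 lower, and of 10 hormone receptors 3 were higher (with Esr1 and Prlr) and 0 lower. Within subcluster 5 the counts were 1 higher (Th) and 0 lower of 7 monoamine genes, and 0 higher and 3 lower of 6 hormone receptors: Esr1, the progesterone receptor Pgr (32.3 ± 8.31 against 58.3 ± 28.9 CPM; -1.05 ± 0.21 log2, higher in Gal-high cells in 1 of 5 libraries) and Thra (329 against 416 CPM). Cartpt was level (188 against 187 CPM). With subclusters and clusters led by early-response genes left out, also an alternative chosen after seeing the data, Th differed by 3.41, Calcr by 2.97 and Galr1 by 2.20 log2, and 31% of 11070 genes passed.

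**Figure D3:**
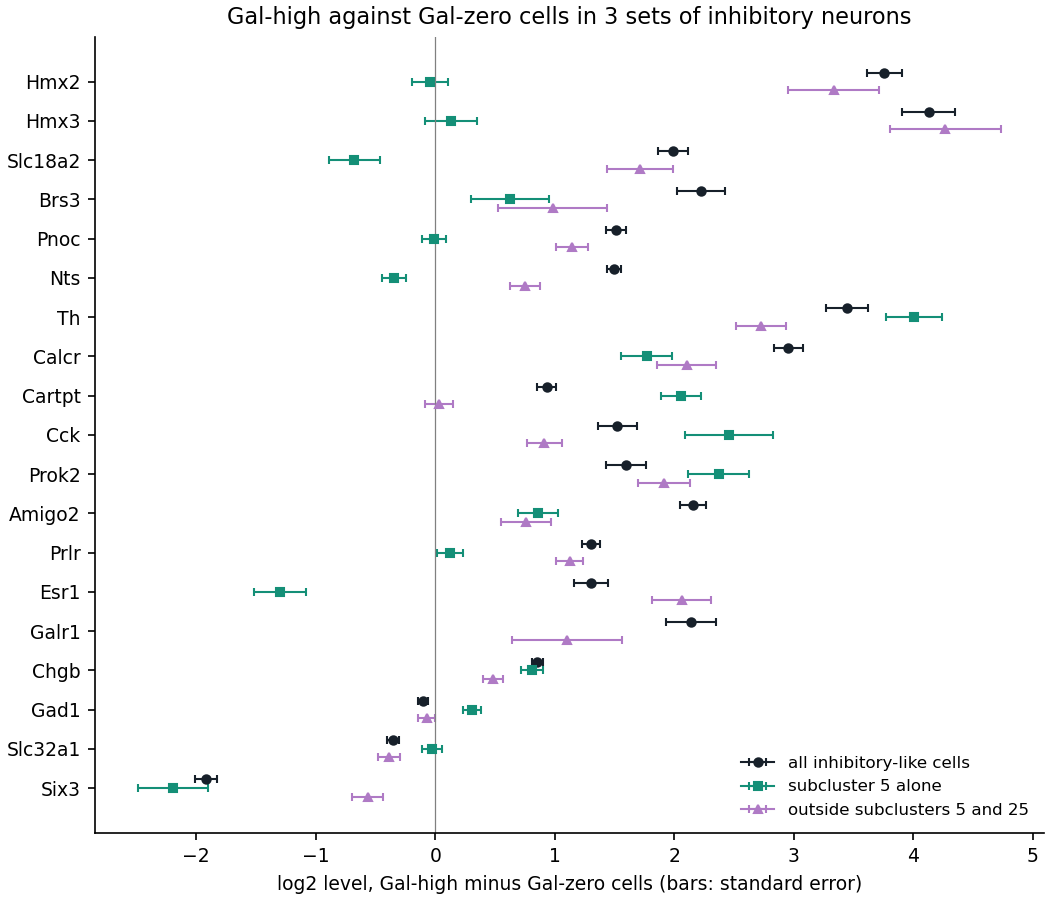
Log2 level of 19 genes in Gal-high minus Gal-zero cells with bars for the standard error, in all inhibitory-like cells (circles), in subcluster 5 alone (squares) and outside subclusters 5 and 25 (triangles); Galr1 was too low to enter the fit of subcluster 5. Th and Calcr lie right of 0 in all 3 sets, Hmx2, Hmx3 and Pnoc lie near 0 within subcluster 5, and Esr1 changes side (-1.30 and 2.06).

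UMIs of Th and Calcr met in few Gal-high cells, without a steady direction between libraries. Of the 706 Gal-high neurons, 107 (15.2%) held 3 or more Th UMIs, 228 (32.3%) held a Calcr UMI, 40 (5.67%) met both conditions and 411 neither. Calcr had a UMI in 37.4% of the Th cells and 31.4% of the remainder. The share was higher among Th cells in female 2 (44.2% against 30.5%) and male 2, lower in female 1 (33.3% against 43.2%) and male 1, and male 3 had 1 such cell. Both genes are sparse at these cut-offs, so separate cells cannot be told from missed UMIs.

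Gal-high cells of different subclusters also differed in other genes. Among Gal-high cells, Th had a UMI in 37.4% of subcluster 5, 28.6% of subcluster 25, 29.7% of subcluster 0 and 56% of the 25 cells in subcluster 17, but in none of the 17 of subcluster 10. Calcr had a UMI in 40.2%, 45.4% and 25% of subclusters 5, 25 and 0 and in 4% of subcluster 17. In subcluster 17, Esr1 had a UMI in 64%, Moxd1 in 36% and Trh in 52%, compared with 14.7%, 2.9% and 14.9% in subcluster 5. Those 25 cells of subcluster 17 came mostly from females 1 and 2 (9 and 12 cells), with 2, 1 and 1 from males 1 to 3. Shares of Esr1 and Trh in subcluster 17 as a whole are not given here, so these are not read as particular to its Gal-high cells. The excitatory subclusters 15 and 10 had Adcyap1 in 60% and 52.9%, and Trh had a UMI in 76.5% of the Gal-high cells of subcluster 10. Adcyap1 is a leading gene of subclusters 15 and 10 as a whole, and Trh of subcluster 10. Their shares are therefore not read as particular to Gal-high cells. Since Moxd1 took part in the clustering that formed these subclusters and some of them hold under 30 Gal-high cells, all shares by subcluster are a description.

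**Figure D4:**
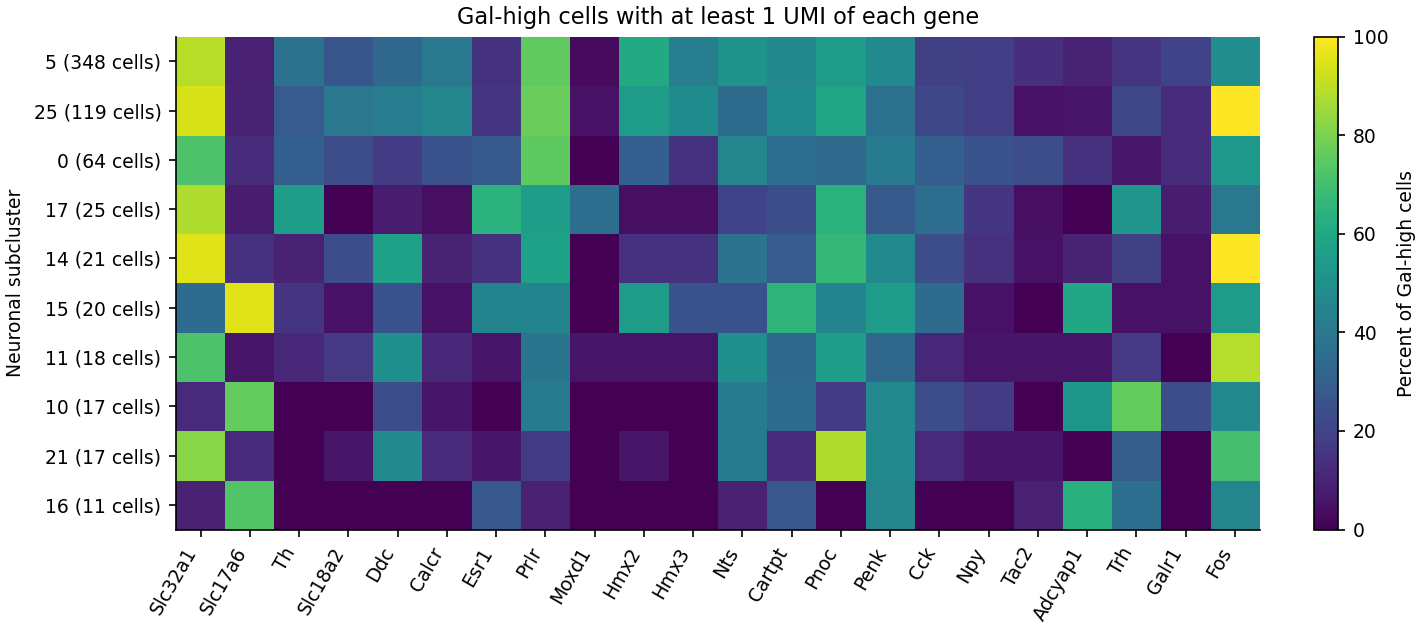
Percent of Gal-high cells with at least 1 UMI of each of 22 genes (colour, 0 to 100%), in the 10 subclusters with the most Gal-high cells, whose numbers stand in the row labels. Th and Calcr are each seen in 25% or more of the Gal-high cells of subclusters 5, 25 and 0. Gal-high cells of subcluster 17, of which 9 and 12 of 25 came from females 1 and 2, have Th (56%) and Esr1 (64%) but little Calcr (4%). Shares are per gene and do not count cells with both.

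Galr1 was sparse. In the 30824 cells there were 1116 Galr1 UMIs in 835 cells (2.71%), with at most 6 in a cell. The level was 4.88, 6.50 and 0 CPM in the 3 females and 5.02, 3.91 and 2.28 CPM in the 3 males. Female 3 had none in its 406 cells kept, which allows a share of up to 0.739% of cells with a UMI.

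Galr1 was higher in excitatory than in inhibitory neurons, the opposite order to Gal. Excitatory-like neurons held 12.7, 16.0 and 0 CPM in the females and 13.6, 11.1 and 3.68 CPM in the males, and inhibitory-like neurons 5.36, 6.81 and 0 CPM and 6.31, 6.58 and 4.30 CPM. In 4 libraries excitatory neurons were higher, in male 3 inhibitory neurons were, and female 3 had no UMI in either. The fitted difference, inhibitory minus excitatory, was -1.07 ± 0.12 log2 (adjusted p = 1.5e-11, edgeR; 4.89 ± 2.57 against 9.52 ± 6.27 CPM, SD, n = 6), while the exact sign-flip test over libraries gave p = 0.125 (adjusted p = 0.178).

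The share of cells with a Galr1 UMI was 9.15% in excitatory, 3.61% in inhibitory and 0.211% in mature oligodendrocyte-like cells, and 2.56%, 1.04% and 0.0612% with cells thinned to 2000 UMIs. Because there are more inhibitory cells, they held 60.0% of Galr1 UMIs and excitatory cells 36.3%. Outside neurons the level was 3.57 CPM in endothelial-like cells (8 UMIs in 7 cells), 3.00 CPM in mural-like, 1.89 CPM in astrocyte-like and 0.392 CPM in oligodendrocyte-like cells. None of the 413 newly formed oligodendrocyte-like cells had a Galr1 UMI, which allows a share of up to 0.726%.

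Over subclusters, Galr1 was highest in 22, an excitatory group led by Tcf7l2, Samd3 and Tbr1 (23.4 CPM, a UMI in 15.7% of 381 cells). Next came the excitatory subclusters 10, led by Trh and Otp (18.3 CPM, 14.6% of 691 cells), and 12, led by Otp, Cbln1 and Ebf1 (17.8 CPM), then the Gal-rich subcluster 5 (14.8 CPM, 10.2%) and the Sst- and Lhx6-led subcluster 3 (13.3 CPM). In subcluster 22 the libraries ranged from 0 to 39.6 CPM, in subcluster 10 from 10.3 to 21.7 CPM, in subcluster 5 from 0 to 16.8 CPM and in subcluster 3 from 11.2 to 19.8 CPM, so these neighbours do not differ beyond their spread. The levels of Gal and Galr1 over the 32 subclusters had r = 0.40. The genes that ran most closely with Galr1 were Arhgap24 (0.74), Trpc5 (0.72), Rwdd2a (0.72), Pigs (0.71) and Faim2 (0.71), as a description over groups that share libraries.

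**Figure D5:**
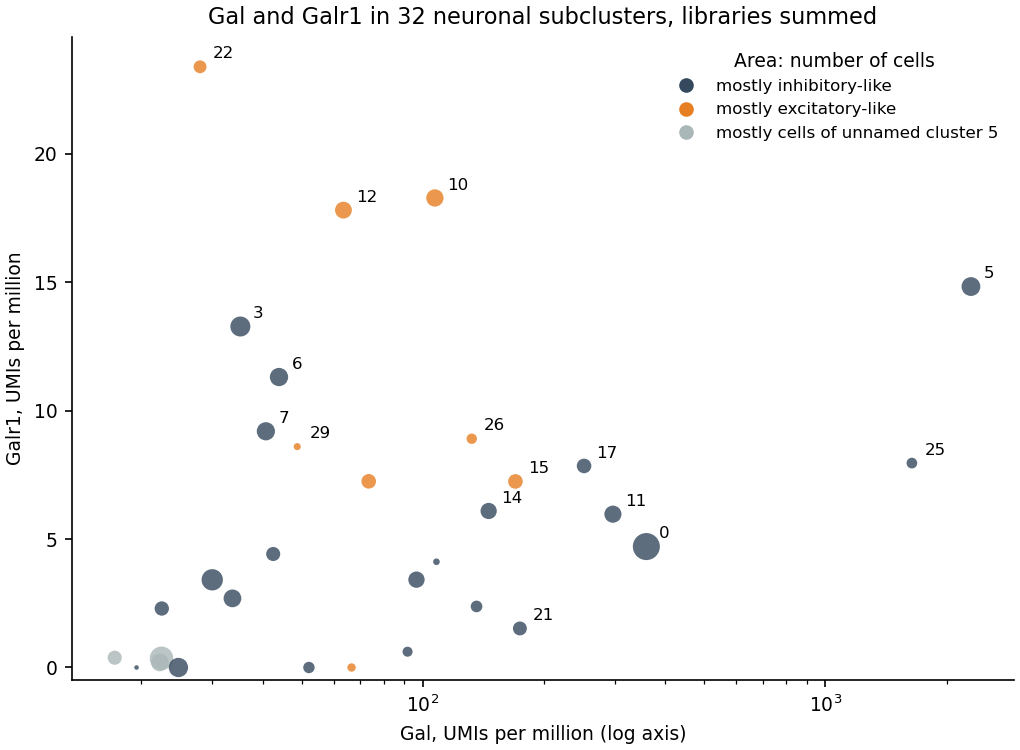
Gal level (CPM, log axis) against Galr1 level (CPM) in the 32 neuronal subclusters, with area for the number of cells and colour for inhibitory, excitatory and unnamed groups. Subcluster 5 is high in both (2299 and 14.8 CPM), whereas the excitatory subclusters 22, 10 and 12 are high in Galr1 at lower Gal levels (28.0, 107 and 63.5 CPM).

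Within inhibitory neurons Galr1 went with Gal. Its level was 24.2 and 21.9 CPM in Gal-high cells of females 1 and 2 and 24.04, 19.9 and 0 CPM in males 1 to 3, against 4.16, 5.17, 4.95, 5.85 and 4.40 CPM in Gal-zero cells. In 4 of 5 libraries Gal-high cells were higher by a wide margin, and male 3, with 27 Gal-high cells, had no UMI, which allows a share of up to 11.1% of those cells. The difference was 2.14 ± 0.21 log2 (adjusted p = 3.1e-09, edgeR; 18.0 ± 10.2 against 4.90 ± 0.67 CPM, SD, n = 5).

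A low Gal count did not go with more Galr1. Inhibitory neurons with 1 to 9 Gal UMIs held 5.33 CPM, near the 5.04 CPM of those with none, compared with 21.8 CPM at 10 or more. With cells thinned to 2000 UMIs, 3.56% of Gal-high and 0.866% of Gal-zero inhibitory cells had a Galr1 UMI. In excitatory neurons the levels were 14.0 and 13.7 CPM at 0 and 1 to 9 Gal UMIs. The 59 excitatory cells with 10 or more Gal UMIs held only 9 Galr1 UMIs, at 25.4 CPM in the 23 cells of female 2 and 3.60 CPM in the 24 of male 1, so no level is read from them. Within subcluster 5, Galr1 had 115 UMIs in the Gal-high and 5 in the Gal-zero cells (means of 21.8 and 2.03 CPM), too few for the fit. Outside subclusters 5 and 25 the difference was 1.10 ± 0.46 log2 and did not pass (edgeR adjusted p = 0.20; 19 UMIs in Gal-high cells).

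Read from the receptor's side, neurons with a Galr1 UMI were compared with neurons without one (763 against 17425 cells in 5 libraries, 12 to 340 and 984 to 5852 per library). They held more Gal, Trh, Otp, Sst, Npy and Th and less of the striatal genes Adora2a and Ppp1r1b. Of 12238 genes, 2278 passed (18.6%), and 1478 without female 2. All neuronal clusters entered here, the unnamed cluster 5 among them. Ppp1r1b and Adora2a are leading genes of that cluster, which held 4 Galr1 UMIs in 2110 cells. The fits within a class below leave it out, and its part in these differences was not tested. Gal stood at 1215 and 1352 CPM in females 1 and 2 and 1442, 1048 and 17.7 CPM in males 1 to 3, against 202, 243, 187, 121 and 211 CPM in neurons without a Galr1 UMI. The first 4 lay above all values of the other group, and male 3, with 12 such cells, below all of them. The difference was 2.62 ± 0.13 log2 by edgeR (adjusted p = 2.9e-24), but 2.10 by DESeq2, which did not pass (adjusted p = 0.11). With cells thinned to 2000 UMIs edgeR gave 2.69 log2.

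Trh, which encodes thyrotropin-releasing hormone, stood at 525 ± 207 against 153 ± 51.8 CPM (1.69 ± 0.11 log2) and the fate factor Otp at 85.2 ± 37.7 against 22.8 ± 5.44 CPM, both higher in 5 of 5 libraries, as were Sncg (90.8 against 31.9 CPM), Prox1 (23.2 against 7.13 CPM), Chst8 (22.6 against 8.37 CPM), Nrn1 (73.0 against 40.7 CPM), Gm11837 (20.4 against 9.71 CPM) and Bdnf (50.4 against 25.2 CPM). Widest downward were Adora2a (1.96 against 22.5 CPM), Col6a1 (1.95 against 26.9 CPM), Ppp1r1b (17.1 against 253 CPM) and Gnrh1 (1.64 against 26.9 CPM).

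Of 33 co-peptides tested from a list of 49, 11 were higher and 13 lower (median 0.01 log2). Of 9 monoamine genes 2 were higher, Th (47.2 ± 17.9 against 15.3 ± 4.97 CPM, 4 of 5 libraries) and Slc18a2 (0.63 ± 0.16 log2), the latter not without female 2 (edgeR adjusted p = 0.097). Among 8 transmitter genes Slc17a6 was higher (128 against 87.5 CPM) and 4 were lower, with Gad1, Gad2 and Slc32a1. Of 27 signalling genes 2 were higher, with the channel subunit Kcnj3 at 30.1 ± 9.75 against 21.5 ± 3.03 CPM (edgeR adjusted p = 0.042), and 4 were lower. In the fits within a neuron class, treated below, no signalling gene was higher. There 0 of 26 passed in excitatory neurons, and in inhibitory neurons 0 of 25 were higher and 3 lower. Of 16 granule genes 11 were higher and 1 lower (median 0.17 log2), by up to 0.65 log2 for Resp18. Within a class fewer passed: 1 of 16 was higher and 0 lower in excitatory neurons, and 5 were higher and 1 lower in inhibitory neurons.

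Of the remaining lists, 4 of 33 peptide receptors were higher and 3 lower, with Mc4r, Npy2r (36.5 against 22.0 CPM), Oprk1 and Tacr3 on the higher side. Of 10 hormone receptors 2 were higher (with Ghr) and 2 lower (Thrb and Nr3c2), of 15 reported galanin-neuron markers 3 were higher and 2 lower, of 25 early-response genes 1 was higher and 12 lower, and of 28 fate factors 9 were higher, with Fezf1 and Sim1, and 13 lower, with Foxp2. Without female 2, Ghr, Nr3c2 and Mc4r no longer passed; without male 2, Nr3c2, Thrb and Mc4r did not, and Mc4r did not without male 1 either. Blood markers moved with this comparison, mostly in female 2: Hbb-bs stood at 417 CPM in its Galr1-positive and 63.4 CPM in its remaining neurons, and between 3.49 and 19.4 against 2.06 and 10.9 CPM elsewhere. The 8 astrocyte markers (269 to 364 against 149 to 262 CPM, chiefly Aldoc at a mean of 271 against 177 CPM) lay higher, and the 3 tanycyte markers (11.4 to 20.8 against 68.9 to 151 CPM, nearly all Crym at 16.0 against 106 CPM) lower, in neurons with a Galr1 UMI, both without overlap. Crym is also a leading gene of the unnamed neuronal cluster 5. The part of blood RNA and of these cell types in the results was not tested.

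The comparison was also fitted within each neuron class, alternatives that were chosen after seeing the data and that differ in cells and libraries. Among inhibitory neurons (472 against 12492 cells, 5 libraries; 12.3% of 11475 genes passed) Gal differed by 2.92 ± 0.14 log2 (1592 ± 930 against 241 ± 56.1 CPM), Th by 2.34, Npy by 2.14, Prox1 by 1.68 and Sst by 1.17, while Trh was lower (-1.07). Among excitatory neurons (285 against 2729 cells, 4 libraries; 0.784% of 11473 genes) Gal did not pass (0.62 ± 0.18 log2, edgeR adjusted p = 0.099; 124 ± 119 against 97.2 ± 50.4 CPM, higher in 2 of 4 libraries). Higher there were Ghrh (60.3 ± 26.1 against 18.0 ± 9.55 CPM), which encodes growth hormone-releasing hormone, Cxcl12, the growth hormone receptor Ghr (39.0 against 21.4 CPM), Tcf7l2, Sncg, Trh (1233 against 707 CPM) and Otp (179 against 129 CPM). Sln, Ctxn3, Cpne9 and Crh were lower. Whether Gal or any other gene differed between the class-wise fits was not tested.

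Galr2 was at the edge of detection. In the 30824 cells there were 24 UMIs in 22 cells, 3, 12 and 0 UMIs in the females and 4, 5 and 0 in the males. With doublets left out, 13 of 23 UMIs were in excitatory-like neurons (0.465 CPM, 95% exact Poisson interval 0.248 to 0.795 CPM, counting error only) and 7 in inhibitory-like neurons (0.0688 CPM, 0.0277 to 0.142 CPM). These intervals do not overlap. Subcluster 10, led by Trh and Otp, held 8 of the UMIs in 7 cells (0.989 CPM), subcluster 12 held 3 in 2 cells and the Avp-led subcluster 2 held 3 in 3 cells.

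Of the 21 cells with a Galr2 UMI, 6 had a Gal UMI, 3 had a Galr1 UMI and none was Gal-high. None of the 712 Gal-high cells had a Galr2 UMI, which allows a share of up to 0.421%. The genes whose subcluster levels ran most closely with Galr2 were Trh (r = 0.71), Otp (0.67), Sim1 (0.65), Dach2 (0.60) and Nxph4 (0.59), a description that rests on 21 UMIs. Galr2 did not pass the filter on low counts in any edgeR fit. In the sign-flip tests over 6 libraries it was higher in excitatory than in inhibitory neurons in 4 libraries and lower in 0 (exact p = 0.125, adjusted p = 0.178). With no filter, edgeR gave -2.47 ± 0.83 log2 for inhibitory minus excitatory neurons (adjusted p = 0.020), a value that rests on the 20 UMIs of those classes.

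No sex difference in the level of Gal or Galr1 passed. In inhibitory neurons Gal stood at 333, 413 and 97.7 CPM in females and 315, 226 and 256 CPM in males (0.24 ± 0.31 log2, female minus male, adjusted p = 0.96, edgeR; 0.049% of 14273 genes passed). In excitatory neurons the difference was -0.25 ± 0.24 log2 (edgeR adjusted p = 0.97; 61.1 ± 63.1 against 113 ± 56.9 CPM, n = 3; 0.188% of 12207 genes). The sexes overlapped in both. Single libraries moved these values: in inhibitory neurons Gal differed by -0.095 log2 without female 2 and by 0.55 without female 3 (edgeR adjusted p = 0.67), and in excitatory neurons by -0.99 without female 2 (edgeR adjusted p = 0.14) and by 0.27 without male 1. Female 3 gave 4 excitatory cells, and without it the excitatory value was -0.24 log2. Galr1 differed by 0.03 ± 0.23 log2 in inhibitory and 0.40 ± 0.23 log2 in excitatory neurons (edgeR adjusted p = 1.0 and 0.84). Across all cells Gal differed by 0.29 ± 0.58 log2 (-0.19 without female 2 to 0.74 without female 3) and Galr1 by 0.37 ± 0.43 log2 (-0.026 without female 2 to 0.58 without male 1). With a replicate block, the genes passing went from 7 to 494 in inhibitory and from 23 to 281 in excitatory neurons, but Gal (0.26 log2, edgeR adjusted p = 0.45 in inhibitory neurons) and Galr1 were not among them. The count in excitatory neurons ranged from 10 without female 3 to 97 without male 3.

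The share of Gal-high cells among inhibitory neurons was 5.89%, 6.39% and 1.03% in females and 4.19%, 3.02% and 3.73% in males (4.44 ± 2.96% against 3.65 ± 0.59%, SD, n = 3; exact two-sided permutation test p = 0.7, smallest possible p 0.1). Females 1 and 2 lay above all males and female 3, in which 1 of 97 inhibitory neurons was Gal-high, below them. Without female 3 the means were 6.14% and 3.65% (exact permutation p = 0.1, the smallest this design gives). Among all cells the shares were 2.17 ± 1.68% and 1.65 ± 0.50% (exact permutation p = 0.7). The cut of 10 UMIs does not scale with depth, and females 1 and 2 were the deepest libraries and female 3 the shallowest. With the cut at 10 Gal UMIs per 10000 UMIs, the shares of inhibitory neurons were 6.16%, 6.21% and 3.09% in females. In males they were 5.09%, 3.50% and 4.84% (exact permutation p = 0.6). The part of depth in these shares was not tested.

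Within Gal-high neurons 14 of 10289 genes passed between 2 female and 3 male libraries (0.136%), 43 with the replicate block and 31 without female 1, which leaves female 2 as the only female library, assumed to vary like the males. Beside sex-chromosome genes, the transcription factor genes Npas1 (16.0 and 18.3 CPM against 3.28, 0 and 0 CPM; 3.22 ± 0.57 log2, adjusted p = 0.018, edgeR) and Prox1 (34.1 and 22.2 CPM against 5.90, 9.38 and 0 CPM; 2.09 ± 0.40 log2, adjusted p = 0.035) were higher in females, with no overlap between the sexes. Galr1 in these cells stood at 23.7 and 22.2 CPM in females and 20.3, 18.8 and 0 CPM in males and did not pass (0.44 ± 0.35 log2). In excitatory neurons beside Xist, Avp had the largest difference toward females, 43.8, 1110 and 0 CPM against 22.7, 99.7 and 30.7 CPM, with female 2 far above the rest.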

How the data were processed

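The authors deposited 1 sparse table of raw UMI counts per gene and cell barcode for all 6 libraries, together with its gene and barcode lists. Per the submitters' processing notes it was made with Cell Ranger 2.0.0 on the mm10 build; the annotation, the cell calling and the use of strand were not given in the sources used here. Barcode suffixes tied cells to libraries through the labels, and 0 columns were left unused. The table held 217266089 UMIs in 31299 barcodes, and 65 gene symbols occurred more than once.

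Cells with at least 500 genes and at most 20% mitochondrial UMIs were kept, and doublets called by Scrublet (expected rate 0.06, scanpy 1.11.5, Python 3.11.15) were left out. Cells were clustered on 2000 variable genes, of which 1954 (1938 for neurons) stayed once galanin genes, peptides, monoamine genes and hormone and peptide receptors had been removed (30 components, 15 neighbours, Leiden at 1 and at 1.5 for neurons, leidenalg 0.10.2, seed 0). This gave 28 clusters, of which 13 were neuronal because each of at least 8 neuron markers was seen in at least 50% of their cells. Class names came from marker lists, and cells thinned to 2000 UMIs left out 553 shallower cells.

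UMIs were summed per library and cell set and tested with edgeR 4.0.16 (quasi-likelihood, TMM scaling, default filter at a minimum count of 10, Benjamini-Hochberg adjustment over all genes tested, threshold 0.05; R 4.3.3). The Gal-high and Galr1 comparisons took libraries with at least 10 cells per arm; the comparisons of sexes in a class and of neuron classes took all 6 libraries, female 3 with 4 excitatory cells among them. Comparisons within libraries had the library as a block, and standard errors are the fold change divided by the square root of F. DESeq2 1.42.0 was an alternative. The tests were checked on simulated counts. CPM values set side by side for a test are means over libraries, and single levels of a class or subcluster are over its summed cells. Depth ran from 1278429 to 81162330 UMIs per library, so low genes in female 3 are least precise. Intervals are 95% exact Poisson, and the limit for a count of 0 is 3 counts; both cover counting error only. Coordinates are from GENCODE M21 by gene identifier.

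Same-numbered female and male pools deviated together (correlations of 0.74, 0.13 and 0.61 over 7213 genes in all cells and 0.48, 0.43 and 0.48 over 7019 genes in inhibitory neurons). The labels do not say what the numbers mark, so this pairing rests on the data, and depth also tracks the numbers.

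The genes and lists were chosen with earlier results of these data known. Named genes were the galanin genes, a set of transmitter, monoamine and receptor genes, the 10 widest higher and 5 widest lower genes of the Gal-high comparison (8 and 4 for Galr1) with at least 20 CPM and the same sign in every library, up to 6 or 3 called members per list, and the 5 genes most like each member among those reaching 50 CPM. Genes named beyond these, among them most list members described by subcluster or within a class and the blood genes, were chosen after their values were seen. Fits within subcluster 5, outside subclusters 5 and 25, without early-response clusters and within a neuron class were added after seeing the data, as were all alternatives for the interaction of sex and neuron class and the other Gal-high thresholds for transmitter classes. Galr3 was not analysed here; of Galp, the galanin-like peptide gene, 2 UMIs were seen. Counts over gene lists cover every member tested, of which some are not reported here by name.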

Additional observations from a re-analysis of the deposited data

Results flagged for a closer look

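The sex difference in Gal was not the same in the neuron classes by the test of the difference itself. Female minus male in inhibitory neurons less that in excitatory neurons was 0.70 ± 0.11 log2 (edgeR adjusted p = 1.85e-06), and 33 of 12901 genes passed this interaction test (0.256%). DESeq2 gave 0.84 log2 for Gal and called 0 genes, with 111 genes at an unadjusted p under 0.05 against 703 in edgeR. The Gal call was lost without female 1 (0.42 log2), without female 3 (0.69 log2) and without male 1 (0.22 log2). Per library, the log2 ratio of inhibitory to excitatory Gal was 2.52, 1.70 and 6.62 in females and 0.90, 2.03 and 1.11 in males, a difference of 2.27 with an exact two-sided permutation p of 0.2. The value of 6.62 came from female 3, which had 4 excitatory cells, and the sexes overlapped.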

How the results depend on the processing

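Gal remained higher in inhibitory and Galr1 in excitatory neurons, and Galr1 in Gal-high inhibitory neurons past the threshold, whichever single library was left out (1.48 to 1.95, -1.14 to -0.98 and 2.01 to 2.22 log2), and no sex difference of a member passed under any setting tried. Counts of genes past the threshold moved more.

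Between the sexes, without 1 library the count ranged from 4 (without male 3) to 7 in all cells, from 6 to 11 (without female 1) in inhibitory neurons, from 10 to 97 in excitatory neurons and from 11 to 31 in Gal-high neurons, where leaving out female 1 or 2 leaves 1 female library, assumed to vary like the males. With no filter it was 22, 53 and 64 in inhibitory, excitatory and Gal-high neurons, with the replicate block 494, 281 and 43, and with DESeq2 6 in excitatory and 6 in Gal-high neurons. Gal-high neurons gave 9 at 3 Gal UMIs and 6 when thinned to 2000 UMIs. The replicate block changed no other call between the sexes.

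With no replicate block, inhibitory against excitatory neurons gave 1171 genes, Gal-high against Gal-zero 2263 and Galr1-positive against Galr1-zero neurons 477, of which 31.0% were higher in place of 54.9%. Thinning gave 1489, 1786 and 756 genes. Gal-high against Gal-zero gave 601 genes outside subclusters 5 and 25, where Galr1 differed by 1.10 log2 and did not pass, and 123 within subcluster 5; without 1 library it gave 2879 to 3770, and inhibitory against excitatory neurons 2690 to 3636. Signs turned within subcluster 5 for Hmx2 (-0.043), Avp (0.59), Slc18a2 (-0.68), Esr1 (-1.30), Plcb1 (0.44), Chga (0.22) and Gad1 (0.31), and outside both for Maob (-0.21).

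Galr1-positive against Galr1-zero neurons gave 1495 genes by DESeq2, 90 in excitatory and 1411 in inhibitory neurons alone, 1463 with classes gated by Slc32a1 and Slc17a6 UMIs, 1120 at 2 Galr1 UMIs and 1478 to 2364 without 1 library. Gal there differed by 2.10 by DESeq2 and 0.62 in excitatory neurons, neither past the threshold. In inhibitory neurons alone signs turned for Trh (-1.07), Sncg (-0.0079), Nrn1 (-0.899), Bdnf (-0.62), Slc17a6 (-0.24), Ghr (-0.18) and Pcsk1 (-0.037), and in excitatory neurons alone for Prox1 (-0.073), Slc17a6 (-0.20), Thrb (0.27), Ramp1 (0.13) and Plcb1 (0.19).

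The interaction of sex and neuron class gave 0 genes by DESeq2 and 13 to 50 without 1 library; for Gal it was 0.84 by DESeq2, 2.27 as a difference of log2 ratios and 0.22 to 1.25 without 1 library. The sex difference in the share of Gal-high cells ran from -0.19 (without female 2) to 2.49 (without female 3) percentage points of inhibitory neurons and from -0.064 to 1.48 of all cells. Slc32a1 alone was seen in 39.9% of Gal-high neurons when thinned and 67.4% at 3 UMIs, both genes in 0.709% when thinned, Slc17a6 alone in 11.2% at 3 UMIs, and neither in 53.3% when thinned and 14.1% at 10 Gal UMIs per 10000.

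Where not stated, the cause was not tested; thinning and fits on fewer cells leave fewer UMIs and genes to test. The fit of Gal-high against Gal-zero excitatory neurons and its alternatives were not run, and thinning took Galr1 out of several fits. Depth limits Galr2, with 23 UMIs, and every value from female 3.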

Other observations

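Beyond neurons and oligodendrocytes, Gal stood at 63.2 CPM in astrocyte-like, 57.5 CPM in macrophage-like, 52.7 CPM in endothelial-like, 41.3 CPM in dividing and 25.7 CPM in microglia-like cells. The unnamed neuronal cluster 5 had GABA genes in most cells but was not counted as inhibitory-like. Its subclusters are led by genes such as Pdyn, Tac1 and Drd1. It held little of either Gal or Galr1, 21.8 CPM of Gal and 0.291 CPM of Galr1 in 2110 cells. Predicted doublets, which entered no comparison, held 1516 Gal UMIs and 26 cells with 10 or more.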
